A study of Mus musculus with 6 samples.

Results

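Steroid receptor genes and genes of the glucocorticoid response were compared between adipocytes with and without deletion of PU.1. The 8 genes were chosen by symbol from the 35122 genes of the count table: the receptor genes Nr3c1, Nr3c2 and Esr1, the enzyme gene Hsd11b1, and Fkbp5, Tsc22d3, Zbtb16 and Sgk1, whose transcription glucocorticoids are known to raise. All 8 were in the table, and all 8 passed the filter on low counts. RNA came from the floating adipocyte layer of collagenase-digested epididymal fat of male C57BL/6 mice on a chow diet, 1 library per mouse. The 3 control mice were PU.1 fl/fl, with loxP sites around 1 exon of Spi1, the gene of PU.1, and no Cre. The 3 aPU.1KO mice were AdipoqCre_PU.1 fl/fl, in which the same floxed alleles met a Cre transgene driven by the adiponectin promoter, so that deletion is directed to adipocytes and not to macrophages or other cells of the fraction. Both groups were 10 to 11 months old by the labels, and the study's text states an older age. Mice are numbered 1 to 3 within a group.

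Glucocorticoids cross the cell membrane and bind the glucocorticoid receptor, which is held in the cytosol by heat shock proteins and FKBP chaperones and then moves to the nucleus. There it binds DNA at paired half-sites and raises genes such as Fkbp5 and Tsc22d3, while it restrains inflammatory genes. Adipocytes also express the mineralocorticoid receptor, which binds the same hormones, and the enzyme 11β-HSD1, which regenerates active glucocorticoid from its inactive form inside the cell, so that hormone in fat is set partly by the tissue itself.

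Library totals ran from 20550252 to 69283842 counts, with control mouse 1 the deepest, and each of the 8 genes had at least 269 counts in every library. Levels are given as CPM, counts scaled to library size after TMM normalization, which makes libraries of different depth comparable. Spi1, read over all of its exons, was at 24.3, 6.35 and 26.7 CPM in control mice 1, 2 and 3 and at 3.20, 1.22 and 4.17 CPM in aPU.1KO mice, with an edgeR adjusted p of 0.0788. The deleted exon cannot be seen in gene counts. The study's text names macrophages left in the fraction as a possible source of PU.1, and their part in the Spi1 values was not tested. Summed over 10 adipocyte markers, the level was 26200 to 28790 CPM in control mice and 31438 to 36382 CPM in aPU.1KO mice, so the labelled cell type was plain in every library. Summed over 12 macrophage markers, it was 434.8 to 1488 CPM in control mice and 210.6 to 301.0 CPM in aPU.1KO mice, and control mouse 2 stood apart from the other control mice at the low end. Endothelial markers summed to 532.8 to 777.0 against 324.5 to 682.1 CPM, mural markers to 443.9 to 715.9 against 328.7 to 478.4 CPM and hepatocyte markers to 39.9 to 63.1 against 18.6 to 24.3 CPM. Mesothelial, lymphocyte and epididymal markers each summed to at most 18.6 CPM in any library.

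None of the 8 genes (0 of 8) passed an adjusted p of 0.05 with edgeR's quasi-likelihood test, against 0.237% of the 13925 genes tested. Unadjusted, 2 of 8 had a p under 0.05, Hsd11b1 and Esr1, both with the higher level in aPU.1KO mice. Among all genes tested, 25.7% had such a p, 11.9% with the higher level in aPU.1KO mice. The same 2 genes were those in which the groups of mice did not overlap, against 16.7% of all genes that lay higher without overlap and 32.1% without overlap in either direction. DESeq2, the tool of the study's methods, gave an adjusted p under 0.05 for 1 of 8, Hsd11b1, which was higher, against 11% of the genes it tested, 3.51% higher and 7.48% lower. The median log2 fold change (aPU.1KO over control) was 0.27 over the 8 genes and 0.014 over all genes tested. With 3 mice per group, an exact two-sided permutation test of a single gene cannot give a p below 0.1.

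**Figure D1:**
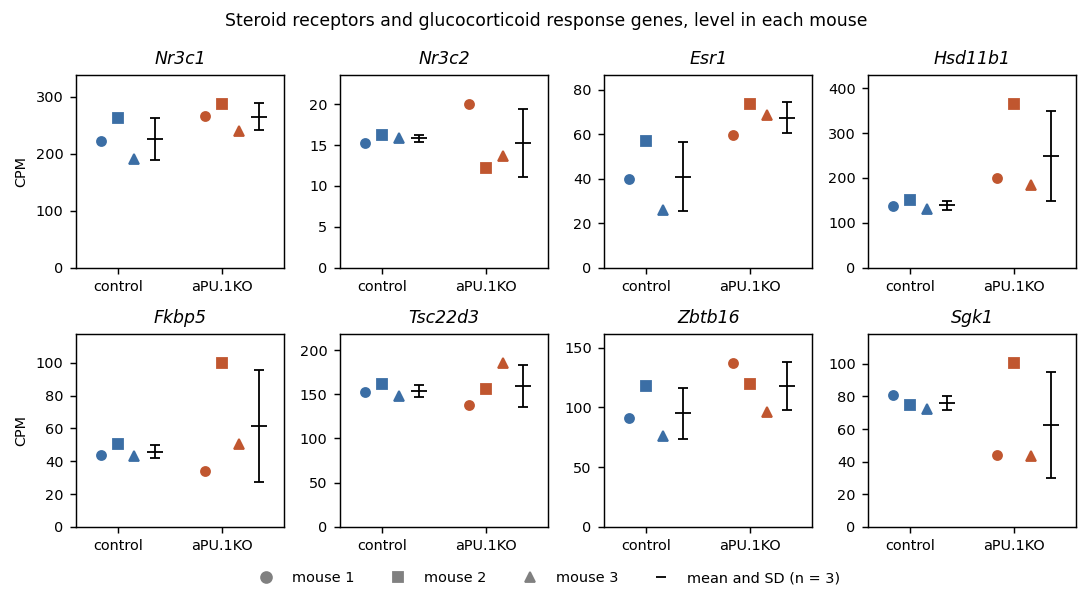
Level of each of the 8 genes in CPM (vertical axes, each from 0) for the 3 control mice (blue) and the 3 aPU.1KO mice (orange), with a symbol for each mouse and the group mean and SD (n = 3) in black. The groups are apart in Esr1 and Hsd11b1, and aPU.1KO mouse 2 is the highest of the 6 in 5 genes.

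Nr3c1, which encodes the glucocorticoid receptor (ENSMUSG00000024431; chromosome 18, 39410545 to 39519421, minus strand, GRCm38), was at 223.2, 263.4 and 191.2 CPM in control mice 1, 2 and 3 and at 266.8, 287.5 and 240.6 CPM in aPU.1KO mice 1, 2 and 3. The highest control mouse lay within the range of the aPU.1KO mice, so the groups overlapped. On the log2 scale the difference was 0.23 (standard error 0.14), with a 95% interval of -0.092 to 0.55 (edgeR adjusted p = 0.328). The interval therefore leaves room for a receptor transcript 1.47-fold higher in aPU.1KO adipocytes, and for one 0.938-fold that of control.

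Nr3c2 (ENSMUSG00000031618; chromosome 8, 76899442 to 77245012, plus strand), which encodes the mineralocorticoid receptor, was at 15.3, 16.2 and 15.9 CPM in control mice. In aPU.1KO mice it was at 20.02, 12.2 and 13.7 CPM, with 1 mouse above and 2 below all control mice. Its log2 fold change was -0.047 (95% interval -0.50 to 0.40, edgeR adjusted p = 0.895), and its sign turned when aPU.1KO mouse 2 (0.091) or mouse 3 (0.028) was left out. Exons of Nr3c2 overlap those of Gm10649 on the other strand over 247 bp, a gene that is not listed in the count table.

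Esr1 (ENSMUSG00000019768; chromosome 10, 4611593 to 5005614, plus strand) encodes estrogen receptor α, which in male fat responds to estrogen made from androgens. It was at 39.9, 56.8 and 26.0 CPM in control mice 1, 2 and 3. In aPU.1KO mice it was at 59.7, 73.5 and 68.6 CPM. Every aPU.1KO mouse lay above every control mouse, by a margin that was narrow for control mouse 2. The log2 fold change was 0.72 (standard error 0.26, 95% interval 0.096 to 1.34), or 1.65-fold, with an unadjusted p of 0.0295 and an edgeR adjusted p of 0.151. DESeq2 gave an adjusted p of 0.0737.

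The value for Esr1 moved with the control mice that entered. Without control mouse 3 it was 0.48 (edgeR adjusted p = 0.264). Without control mouse 2, the control mouse with the lowest macrophage marker level, the log2 fold change was 1.02 and edgeR's adjusted p was 0.0337, where 8.34% of all genes passed that threshold. Over the alternatives other than a covariate, adjusted p for Esr1 ran from 0.0337 to 0.424 by edgeR, DESeq2 or limma. Macrophage markers moved with the groups in the opposite sense: 11 of 12 had a negative log2 fold change, with a median of -2.09, and none was at 0 in all libraries. Their mean log2 CPM did not overlap between the groups, at 4.602 to 6.18 in control mice and 3.52 to 3.92 in aPU.1KO mice. Fitted beside that score, Esr1 had a value of -0.070 (standard error 0.38). In bulk RNA, fewer cells of a type and less RNA per cell cannot be told apart, and neither can genotype and the macrophage share in these 6 mice.

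Hsd11b1 (ENSMUSG00000016194; chromosome 1, 193221634 to 193264075, minus strand) had the largest log2 fold change of the 8 genes. The enzyme sits in the endoplasmic reticulum and reduces 11-dehydrocorticosterone to corticosterone, the main glucocorticoid of mice. Its transcript was at 136.6, 150.5 and 131.2 CPM in control mice, and at 198.9, 365.4 and 183.8 CPM in aPU.1KO mice. All aPU.1KO mice lay above all control mice, and mouse 2 stood well above the other two. The means were 139.5 ± 9.98 CPM (SD, n = 3) and 249.4 ± 100.8 CPM. The log2 fold change was 0.84 (standard error 0.26, 95% interval 0.22 to 1.46), or 1.79-fold, and the adjusted p was 0.115 in edgeR and 0.0233 in DESeq2. The latter is the lowest over the alternatives other than a covariate, and the highest was 0.394. Without aPU.1KO mouse 2 it was 0.45 (standard error 0.086, edgeR adjusted p = 0.106). Fitted beside the macrophage score it was 0.33, with a standard error of 0.54 that was larger than the value.

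The adipocyte markers, 9 of 10 of which had a positive log2 fold change with a median of 0.38, moved in the same sense as Hsd11b1 and Esr1, and their part in the result was not tested. The log2 fold change of Adipoq was 0.43 (edgeR adjusted p = 0.115). H6pd, whose product supplies NADPH to 11β-HSD1 in the endoplasmic reticulum, was at 458.5, 559.8 and 447.0 CPM in control mice and at 661.7, 539.9 and 602.6 CPM in aPU.1KO mice. The groups overlapped, with a log2 fold change of 0.30 (edgeR adjusted p = 0.201). Hsd11b2, which encodes the enzyme of the opposite reaction, was near the limit of the filter, at 0.991 to 1.09 CPM in control mice and 0.452 to 0.915 CPM in aPU.1KO mice (log2 fold change -0.46, edgeR adjusted p = 0.441). It was named for its role, after its values were seen.

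**Figure D2:**
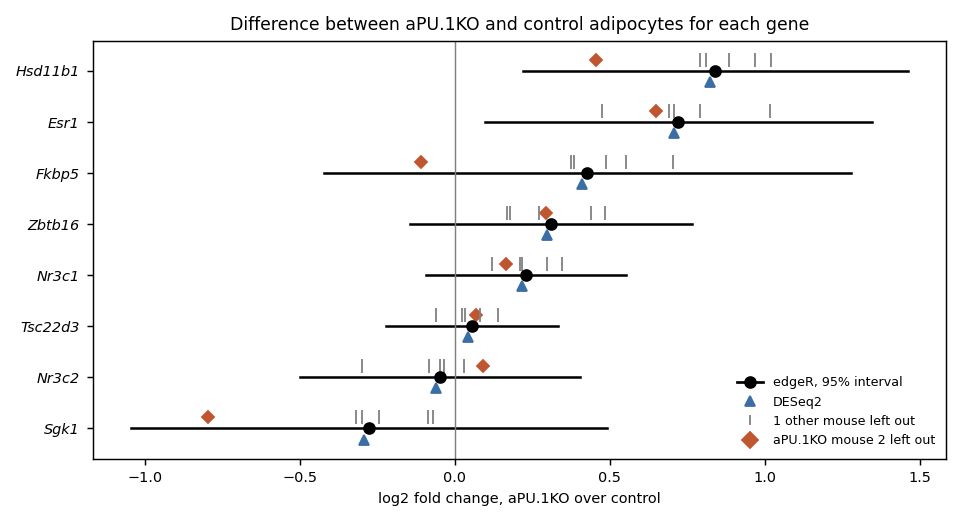
Log2 fold change of each gene, aPU.1KO over control (horizontal axis), from edgeR with its 95% interval (black), from DESeq2 (blue triangles), and from edgeR with 1 mouse left out (grey ticks, and orange diamonds for aPU.1KO mouse 2). The intervals of Hsd11b1 and Esr1 lie above 0, and the diamonds are far from the full value in Hsd11b1, Fkbp5 and Sgk1.

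Fkbp5 (ENSMUSG00000024222; chromosome 17, 28399094 to 28517527, minus strand), a co-chaperone that lowers the hormone affinity of the receptor and whose induction closes a feedback loop, was at 44.1, 50.5 and 43.0 CPM in control mice. In aPU.1KO mice it was at 34.3, 99.6 and 50.8 CPM. Mouse 1 lay below all control mice, mouse 2 far above them, and mouse 3 just above the highest. Its log2 fold change was 0.43 (95% interval -0.42 to 1.28, edgeR adjusted p = 0.487), and it was -0.11 without aPU.1KO mouse 2.

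Sgk1 (ENSMUSG00000019970; chromosome 10, 21882184 to 21999903, plus strand), a kinase that regulates ion channels and transporters and is a target of both receptors, was at 80.8, 74.8 and 72.2 CPM in control mice. In aPU.1KO mice 1, 2 and 3 it was at 43.9, 100.3 and 43.8 CPM. The outer pair of mice agreed closely and lay below all control mice, while mouse 2 lay above all of them. As a log2 fold change this was -0.28 (standard error 0.32, 95% interval -1.04 to 0.49, edgeR adjusted p = 0.624). Without mouse 2 it was -0.80 (standard error 0.074), where edgeR's adjusted p was 0.0586. Other alternatives without a covariate gave adjusted p up to 0.906 by edgeR, DESeq2 or limma.

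Tsc22d3 (ENSMUSG00000031431; chromosome X, 140539528 to 140600659, minus strand) encodes GILZ, a leucine zipper protein through which glucocorticoids restrain inflammatory transcription. It was at 152.0, 161.2 and 147.9 CPM in control mice and at 138.2, 155.8 and 185.0 CPM in aPU.1KO mice. The aPU.1KO mice lay on either side of the control mice. Its log2 fold change was 0.055, and the 95% interval of -0.22 to 0.33 was the narrowest of the 8 genes (edgeR adjusted p = 0.797). A change of more than 1.26-fold upwards, or to less than 0.857-fold, lay outside that interval.

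Zbtb16 (ENSMUSG00000066687; chromosome 9, 48654297 to 48836222, minus strand) encodes the zinc finger repressor PLZF. It was at 91.3, 117.9 and 75.7 CPM in control mice and at 136.9, 119.9 and 96.4 CPM in aPU.1KO mice. All but mouse 3 of the aPU.1KO group lay above the highest control mouse, so the groups overlapped. Its log2 fold change was 0.31 (95% interval -0.14 to 0.76, edgeR adjusted p = 0.348).

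The 4 induced genes thus did not share an order among the aPU.1KO mice. Fkbp5 and Sgk1 were highest in mouse 2, Tsc22d3 in mouse 3 and Zbtb16 in mouse 1. Over the 8 genes, aPU.1KO mouse 2 was the highest of the 6 mice in 5 (Nr3c1, Esr1, Hsd11b1, Fkbp5 and Sgk1), against 28.2% of all genes tested, and the lowest in 1, Nr3c2. The same mouse had the highest summed level of 10 immediate early genes, which stress and tissue digestion are known to induce. That level was 3167 to 3992 CPM in control mice and 4914, 7590 and 2541 CPM in aPU.1KO mice 1, 2 and 3, and 10 of 10 of the genes had a positive log2 fold change, none with a p under 0.05. The part of this in the result was not tested.

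Spread among mice was described by the coefficient of variation of CPM, with no test. The coefficient of variation was 8.88% in control and 55.2% in aPU.1KO mice for Fkbp5, 5.84% and 52.1% for Sgk1, and 7.16% and 40.4% for Hsd11b1. It was larger in the control mice for Esr1, at 37.7% against 10.4%. In all, 5 of 8 genes had the larger coefficient in aPU.1KO mice, as did 66.8% of all genes tested.

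Promoter sequence was examined in RefSeq windows of 300 bases, 250 before and 50 after each start site, on GRCm38.p6. Windows were found for 6 of the 8 genes, 14 in all, and not for Nr3c1 or Zbtb16. The letters ACANNNTGT, the core of the palindrome that the glucocorticoid and mineralocorticoid receptors bind, were searched on both strands together with the half-site AGAACA. They stood in 6.85% and 19.0% of all 32851 windows. Of the 4 genes known to be induced, Sgk1 had windows at 6 annotated starts. Of these, 1 held both motifs, which overlap there in a whole palindrome, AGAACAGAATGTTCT, that begins 189 bases before the start site. Of the other Sgk1 windows, 2 held a half-site alone and 1 the core alone. The full form, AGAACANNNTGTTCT, was in 3 of all 32851 windows (0.00913%) and was searched after these windows had been seen. Of 3 Tsc22d3 windows 1 held a half-site, and the windows of Fkbp5, Hsd11b1, Nr3c2 and Esr1 held neither motif. The 250 bases before 4 start sites are shown, 5′ to 3′ on the strand of the gene, with matched letters in capitals, because they set these cases beside each other.
Sgk1, chr10:21993640-21993889, plus strand: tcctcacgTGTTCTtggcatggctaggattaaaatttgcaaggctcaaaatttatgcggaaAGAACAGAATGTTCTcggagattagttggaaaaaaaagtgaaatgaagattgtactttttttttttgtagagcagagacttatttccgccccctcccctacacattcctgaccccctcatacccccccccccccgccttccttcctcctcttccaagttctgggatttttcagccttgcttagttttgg
Tsc22d3, chrX:140600523-140600772, minus strand: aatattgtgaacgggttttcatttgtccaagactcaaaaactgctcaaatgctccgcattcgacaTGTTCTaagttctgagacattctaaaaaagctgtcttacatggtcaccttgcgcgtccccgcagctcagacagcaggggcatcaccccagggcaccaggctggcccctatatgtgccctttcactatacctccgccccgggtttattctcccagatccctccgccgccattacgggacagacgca
Fkbp5, chr17:28486150-28486399, minus strand: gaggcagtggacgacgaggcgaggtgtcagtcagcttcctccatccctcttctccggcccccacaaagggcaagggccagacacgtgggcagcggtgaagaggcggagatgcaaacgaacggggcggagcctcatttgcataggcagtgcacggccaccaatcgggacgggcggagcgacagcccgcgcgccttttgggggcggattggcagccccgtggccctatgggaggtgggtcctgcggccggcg
Hsd11b1, chr1:193242361-193242610, minus strand: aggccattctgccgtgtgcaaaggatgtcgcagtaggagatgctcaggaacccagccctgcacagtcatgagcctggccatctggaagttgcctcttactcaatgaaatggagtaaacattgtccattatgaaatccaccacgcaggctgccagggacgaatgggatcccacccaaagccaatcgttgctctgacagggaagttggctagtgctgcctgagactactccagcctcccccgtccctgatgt
The palindromic estrogen response element was in 0.07% of all windows and in none of the 14, and GAGGAAGT, letters of the kind that PU.1 binds, was in 3.2% of all windows and in none of the 14. The letters tell nothing of binding in these cells, and other windows and introns, where sites of the receptor are also known, were not searched.

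Levels can be compared between genes only per exon length, here as CPM per kb of merged exons in control mice. Tsc22d3 (35.4 ± 1.57, SD, n = 3), Hsd11b1 (32.8 ± 2.35) and Nr3c1 (29.4 ± 4.71) were the highest and overlapped. Zbtb16 (18.0 ± 4.03) and Sgk1 (15.5 ± 0.904) followed, below every value of Nr3c1, and overlapped each other. Fkbp5 was at 4.84 ± 0.43, Esr1 at 2.99 ± 1.13 and Nr3c2 at 2.44 ± 0.074, and Esr1 and Nr3c2 overlapped. In control adipocytes the glucocorticoid receptor transcript was thus at the 89.7th percentile of all genes tested and that of the mineralocorticoid receptor at the 35.7th. In aPU.1KO mice Hsd11b1 led, at 58.7 ± 23.7, over Tsc22d3 at 36.8 ± 5.44 and Nr3c1 at 34.5 ± 3.06, and each of its values was above each of theirs.

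**Figure D3:**
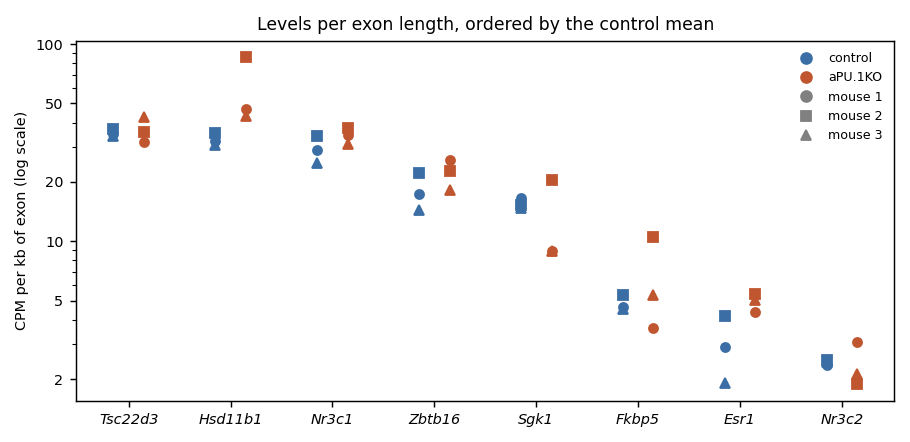
Level of each gene in CPM per kb of exon (vertical axis, log scale), in the order of the control mean, for control mice (blue) and aPU.1KO mice (orange). Tsc22d3, Hsd11b1 and Nr3c1 are highest in control mice and Nr3c2 lowest.

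A list of 30 other genes known to be induced by glucocorticoids was read beside the 4 induced genes. All 30 were tested, and none (0 of 30) passed an adjusted p of 0.05 with edgeR in either direction. Their median log2 fold change was 0.16, with 20 positive and 10 negative values. Unadjusted, 4 had a p under 0.05 with the higher level in aPU.1KO mice and 1 with the lower, against 11.9% and 13.7% of all genes tested, so that the first share was near the background. DESeq2 called 3 higher and 1 lower, against 3.51% and 7.48% of all genes.

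The median of the list leaned on aPU.1KO mouse 2. Relative to the mean of the control mice, the median of the 30 genes on the log2 scale was 0.073, 0.28 and 0.066 in aPU.1KO mice 1, 2 and 3, and between -0.025 and 0.015 in the control mice. Without mouse 2 the median log2 fold change was 0.037. Nfkbia, which encodes the inhibitor of NF-κB, had the largest positive value, 0.66 (standard error 0.49), with 73.0 to 84.0 CPM in control mice and 95.5, 222.8 and 49.0 CPM in aPU.1KO mice 1, 2 and 3. Cdkn1c, a cell cycle inhibitor, had 0.59 (standard error 0.30).

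Cdkn1a, the cell cycle inhibitor p21, had the lowest value, -0.79 (standard error 0.24, edgeR adjusted p = 0.107, DESeq2 adjusted p = 0.0179). It was at 126.5, 95.3 and 121.9 CPM in control mice and at 88.5, 46.5 and 63.4 CPM in aPU.1KO mice, without overlap. Lcn2, an iron-binding acute phase protein, had -0.55 (standard error 0.35), with overlapping groups. In 3 genes of the list, against 16.7% of all genes tested, the aPU.1KO values all lay above the control range, and these were named after their values were seen. They were Klf15, a zinc finger factor of amino acid and lipid metabolism (53.2 to 61.9 against 71.8 to 82.0 CPM, log2 fold change 0.43), Lpin1, a phosphatidate phosphatase (404.2 to 496.4 against 536.7 to 669.3 CPM, 0.45), and Txnip, a thioredoxin-binding protein (555.4 to 749.1 against 849.0 to 971.3 CPM, 0.42).

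Several of these genes are also under the circadian clock, which glucocorticoids help to set. The summed level of 14 clock genes was 668.5 to 767.0 CPM in control mice and 817.9 to 1067 CPM in aPU.1KO mice, and 11 of the 14 had a positive log2 fold change. The 3 with a negative value, named after their values were seen, were Npas2 (-2.16), Arntl (-1.01) and Clock (-0.17). The sum therefore does not describe every gene of the clock list. Its part in the values of the list was not tested, and the hour at which tissue was taken is not given in the sources used here.

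**Figure D4:**
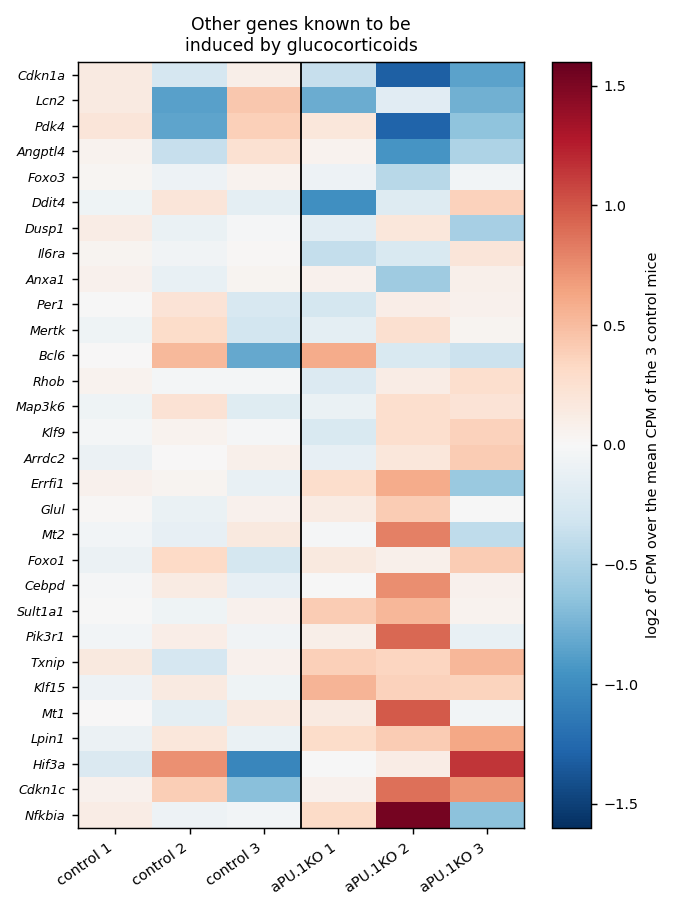
Log2 of CPM over the mean CPM of the 3 control mice (colour) for 30 other genes known to be induced by glucocorticoids (rows, in the order of their log2 fold change) in the 6 mice (columns). The 3 aPU.1KO mice do not share 1 pattern, and Nfkbia, Mt1 and Pik3r1 are highest in aPU.1KO mouse 2.

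Of 17 inflammatory genes that glucocorticoids are known to repress, 16 were tested, and 0 passed an adjusted p of 0.05 with edgeR. Their median log2 fold change was -1.15, with 13 negative, and 7 had all aPU.1KO values below the control range, against 15.5% of all genes tested. Unadjusted, 7 had a p under 0.05 with the lower level in aPU.1KO mice and 1 with the higher (13.7% and 11.9% of all genes). DESeq2 called 6 lower and 0 higher (7.48% and 3.51% of all genes). Il1b, an inflammatory cytokine of myeloid cells, was at 13.6, 3.98 and 11.9 CPM in control mice and at 2.29, 1.76 and 2.23 CPM in aPU.1KO mice (log2 fold change -2.24, edgeR adjusted p = 0.0764). Vcam1, an adhesion molecule, had -1.79 (edgeR adjusted p = 0.0764), without overlap. DESeq2 gave Il1b and Vcam1 an adjusted p of 5.32e-05 and 3.79e-05. The chemokine genes Cxcl10 and Cxcl1 had positive values of 2.84 and 1.55, with overlapping groups. Cxcl10 was at 7.69 to 8.76 CPM in control mice and at 33.2, 139.2 and 2.65 CPM in aPU.1KO mice 1, 2 and 3. The macrophage markers given above moved with the lower genes of the list, and their part in it was not tested.

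**Figure D5:**
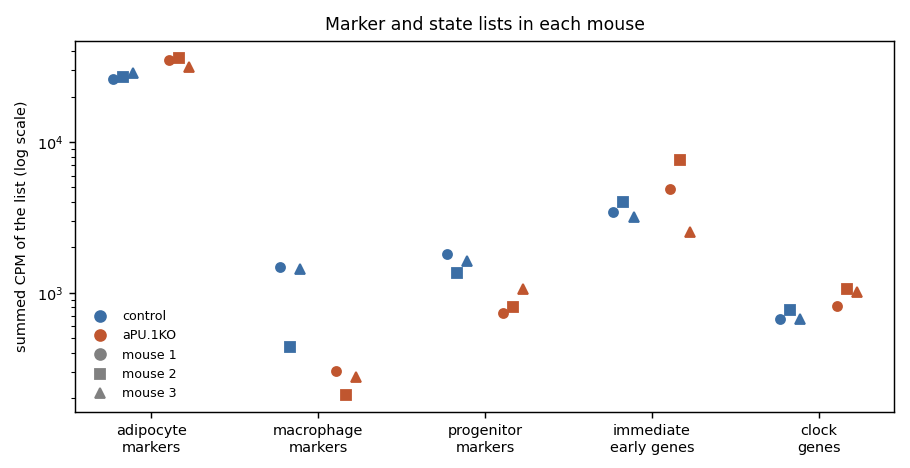
Summed CPM (vertical axis, log scale) of adipocyte, macrophage and progenitor markers, immediate early genes and clock genes in the control mice (blue) and the aPU.1KO mice (orange). Macrophage and progenitor marker sums are lower in all aPU.1KO mice, and the immediate early sum is highest in aPU.1KO mouse 2.

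Other receptors of steroids were read beside Nr3c1, Nr3c2 and Esr1. Of 10 genes, 7 were tested and 0 passed an adjusted p of 0.05 with edgeR, while 2 that were higher and 1 that was lower had an unadjusted p under 0.05 (11.9% and 13.7% of all genes) and DESeq2 called 1 higher (3.51% of all genes). Pgrmc1 and Pgrmc2, which encode membrane-associated progesterone receptor components that bind heme, had log2 fold changes of 0.49 and 0.38 (edgeR adjusted p = 0.0980 and 0.133), and in both the aPU.1KO values lay above the control range. DESeq2 gave Pgrmc1 an adjusted p of 0.0251. Esrrg, an orphan receptor of oxidative metabolism, had -0.71 (edgeR unadjusted p = 0.0545, adjusted p = 0.203), with 5.08 to 6.27 CPM in control and 1.94 to 4.36 CPM in aPU.1KO mice. The lower gene with an unadjusted p under 0.05 was Vdr, the gene of the vitamin D receptor (-1.51, edgeR unadjusted p = 0.0204). It was at 1.01 to 1.78 CPM in control mice and 0.181 to 0.710 CPM in aPU.1KO mice, and was named after its values were seen. Esr2 and Pgr, the genes of estrogen receptor β and the progesterone receptor, were under the filter, at no more than 0.497 and 0.028 CPM in any library.

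Among 12 genes known as estrogen receptor targets, 8 were tested and 0 passed an adjusted p of 0.05 with edgeR, while 1 that was higher and 2 that were lower had an unadjusted p under 0.05 (11.9% and 13.7% of all genes) and DESeq2 called 2 lower (7.48% of all genes). Their median log2 fold change was -0.18, against the positive value of Esr1. Ccnd1, which encodes cyclin D1, and Cxcl12, a stromal chemokine, had the lowest values, -1.01 and -0.83 (edgeR adjusted p = 0.0729 and 0.0803, DESeq2 adjusted p = 9.25e-05 and 0.00204). Neither overlapped between the groups, with 21.9 to 27.3 against 9.10 to 14.7 CPM for Ccnd1 and 121.5 to 163.5 against 62.6 to 96.9 CPM for Cxcl12. Markers of adipose progenitors, 10 of 10 with a negative log2 fold change and a median of -0.88, moved in the same sense, and their part in these values was not tested. Their summed level was 1347 to 1807 CPM in control and 734.0 to 1057 CPM in aPU.1KO mice, and none was at 0 in all libraries. Myc had 0.67 (standard error 0.65), with overlapping groups, and Xbp1, a factor of the unfolded protein response, had 0.36, with 119.4 to 125.5 against 133.1 to 184.2 CPM.

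Of 9 other genes known as mineralocorticoid receptor targets, 6 were tested, with a median log2 fold change of -0.51 and 0 past an adjusted p of 0.05 with edgeR. At an unadjusted p under 0.05, and by DESeq2, 1 of the 6 was lower, against 13.7% and 7.48% of all genes. Lcn2, which is also in the list of induced genes, was at 7.31, 3.63 and 8.88 CPM in control and at 3.81, 5.83 and 3.88 CPM in aPU.1KO mice, with overlapping groups.

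The machinery that carries the receptor was tested in full. Of 14 chaperone and co-chaperone genes 0 passed an adjusted p of 0.05 with edgeR, with a median log2 fold change of 0.071, 3 higher at an unadjusted p under 0.05 (11.9% of all genes) and 1 called higher by DESeq2 (3.51% of all genes). Dnajb1, an HSP40 chaperone, had 0.96 (edgeR adjusted p = 0.109, DESeq2 adjusted p = 0.0149), with 86.7 to 117.1 CPM in control mice and 215.3, 247.0 and 112.6 CPM in aPU.1KO mice, where mouse 3 lay within the control range. Bag1, a regulator of HSP70, had 0.48 (edgeR adjusted p = 0.133). The HSP70 genes Hspa1b and Hspa1a had -0.30 and -0.28, and as near-identical copies they cannot be told apart with certainty by their reads.

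Of 12 coactivator and corepressor genes 0 passed an adjusted p of 0.05 with edgeR, with a median of 0.036 and 1, lower, past an unadjusted p of 0.05 (13.7% of all genes) and by DESeq2 (7.48% of all genes). Ncoa3, a steroid receptor coactivator, had the lowest value, -0.43 (33.9 to 41.3 against 25.8 to 30.4 CPM, edgeR adjusted p = 0.0942, DESeq2 adjusted p = 0.0222). Ppargc1a and Nrip1, which encode PGC-1α and a corepressor of metabolic genes, had 0.42 and 0.18, with overlapping groups in both.

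Of 18 genes of steroid supply and clearance, 17 were in the table, 10 were tested and 0 passed an adjusted p of 0.05 with edgeR, with a median of -0.13. Unadjusted, 1 that was higher and 1 that was lower had a p under 0.05 (11.9% and 13.7% of all genes), and DESeq2 called 0 (11% of all genes). Akr1c14 and Abcb1b, a hydroxysteroid dehydrogenase and a drug and steroid efflux pump, had the lowest values among genes with a mean log2 CPM of at least 1, -0.41 and -0.39 (edgeR adjusted p = 0.375 and 0.183). Hsd17b12, an enzyme of long-chain fatty acid elongation that was also studied for estrogen synthesis, had 0.28 (edgeR adjusted p = 0.166) and did not overlap, at 245.2 to 248.8 against 256.7 to 328.6 CPM.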

How the data were processed

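RNA-sequencing of 6 adipocyte libraries was analysed, 3 control and 3 aPU.1KO, grouped by the genotype in the labels. The authors quantified reads with Salmon (option validateMappings), summed transcripts to genes and deposited estimated counts as whole numbers without normalization. The submitters' processing notes name GRCm38 and FastQC, and the Salmon version is not given in the sources used here. Of 35122 genes, 35102 were matched to GENCODE M21 (GRCm38), whose coordinates are given, and the others hold 0.00188% of counts. Counts entered edgeR 4.0.16 in R 4.3.3 (filterByExpr, TMM, glmQLFit and glmQLFTest with defaults, Benjamini-Hochberg adjustment over 13925 genes). Standard errors and 95% intervals came from the coefficient and the F statistic. The labels do not pair mice across groups, and no libraries of a group were duplicates (chi-square over its degrees of freedom at least 18.96 for each pair). Alternatives used DESeq2 1.42.0, limma 3.58.1 (voom), other scalings, filters and dispersion settings, each mouse left out, a macrophage marker score as covariate, and control library 1 thinned to 22770714 counts. The pipeline was tested on simulated data. The 8 genes and all lists were chosen with earlier results of these data known. Named were the 8 genes, in each pathway list any gene past an adjusted p of 0.05, and the 2 highest and 2 lowest by log2 fold change whose mean log2 CPM was 1 or more, and for each of the 8 genes the 2 most alike over the 6 mice. In the fixed list the symbol of H6pd had been misspelled and was corrected. Library strand is not given in the sources used here. Promoter sequences are RefSeq's (GRCm38.p6). Plots used matplotlib 3.10.9 (Python 3.11.15). Some genes of the lists, though counted, are not reported here by name.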

Additional observations from a re-analysis of the deposited data

How the results depend on the processing

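No paired analysis was possible because the labels give the groups no shared replicate numbers. The study's text calls the control mice littermates, but no source used here says which mouse of one group shared a litter with which of the other. Litter could therefore not enter the fit. Over 16 alternatives, Hsd11b1 and Sgk1 kept the sign of their log2 fold change in every one run. An adjusted p under 0.05 was reached by Hsd11b1 with DESeq2 (log2 fold change 0.82) and by Esr1 without control mouse 2 (1.02), so that the count of genes called higher was 1 in each case against 0 otherwise, and 0 were called lower in any. With each mouse left out, the log2 fold change lay between 0.45 and 1.02 for Hsd11b1, 0.48 and 1.02 for Esr1, -0.11 and 0.70 for Fkbp5, -0.80 and -0.071 for Sgk1, -0.30 and 0.091 for Nr3c2, -0.062 and 0.14 for Tsc22d3, 0.17 and 0.48 for Zbtb16, and 0.12 and 0.34 for Nr3c1. Signs turned in Fkbp5 without aPU.1KO mouse 2, in Nr3c2 without aPU.1KO mouse 2 or 3, and in Tsc22d3 without aPU.1KO mouse 3 (-0.062). The median of the 30 induced genes lay between 0.037 (without aPU.1KO mouse 2) and 0.22. With the macrophage score as a covariate, which the groups do not share, signs turned in Esr1 (-0.070), Fkbp5 (-0.25), Nr3c1 (-0.17), Nr3c2 (0.0034), Tsc22d3 (-0.036) and Zbtb16 (-0.20), and the list median was 0.033. No adjusted p was under 0.05 there, and 329 genes had an unadjusted p under 0.05, against 3575 without it. Over all genes, 33 passed an adjusted p of 0.05 with edgeR, against 5 with at least 10 counts in every library, 146 with no filter, 1833 with DESeq2, 0 with the covariate, and 0 (without control mouse 1, with 1718 at an unadjusted p under 0.05) to 1193 (without control mouse 2) with a mouse left out. The cause was not tested. Depth limits Nr3c2 most of the 8 genes, with as few as 269 counts in a library.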

Other observations

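Among the 3 control mice, mouse 2 was the highest in 7 of the 8 genes, Sgk1 being the exception, against 42.3% of all genes tested. That mouse also had the lowest level of macrophage markers of the control group, 434.8 CPM in sum against 1488 and 1434 CPM. Among the aPU.1KO mice, mouse 2 was the highest in 5 of 8, against 40.4% of all genes, and had the lowest macrophage sum of its group, 210.6 CPM against 301.0 and 276.6 CPM. These are values of single mice.

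The genes most alike to each of the 8 were found by the root mean square difference of log2 CPM, less each gene's mean, over the 6 mice. For Hsd11b1 these were S100a1, which encodes a calcium-binding protein (0.082), and mt-Co3, a mitochondrial gene of cytochrome c oxidase (0.085). For Esr1 they were Chst1, a sulfotransferase gene (0.11), and Hist1h3f, a histone H3 gene (0.12). Zbtb16 was nearest to Slc25a25, a mitochondrial carrier gene (0.057), and Sik2, a salt-inducible kinase gene (0.061). Sgk1 was nearest to Grasp (0.078) and Cdca7 (0.087), and Fkbp5 to Pcgf2, a Polycomb gene (0.089), and Gm10642 (0.12). Nr3c1 was nearest to Lrrc58 (0.024) and Gm10778 (0.037), Nr3c2 to Sytl4 (0.048) and Fas (0.067), and Tsc22d3 to A130010J15Rik (0.020) and Tagap1 (0.029). With 6 points and 13925 genes, close matches are to be had for any gene.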
